A study of Mus musculus with 12 samples.

Results

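The genes described here encode the enzymes and carriers that take glucose carbon from the first isomerization of glycolysis through the tricarboxylic acid (TCA) cycle, with the shuttles that carry reducing equivalents into mitochondria. They were chosen by name: the list held 55 genes, all of which were in the deposited tables of 54022 genes. The 55 names matched 56 rows, because Aldoa stood on 2 rows, and 55 rows passed the filter on low counts that left 16222 genes for testing. MIN6 cells, a mouse insulinoma-derived β-cell line labelled wild type, received vehicle or 100 nM trimethylamine N-oxide (TMAO), a metabolite made in the liver from a product of gut bacteria, for 18 h. After a fast of 1 h they were given low (2.8 mM) or high (16.8 mM) glucose, and poly-A RNA was sequenced. Each of the 4 conditions (low glucose, vehicle; low glucose, TMAO; high glucose, vehicle; high glucose, TMAO) had 3 libraries, labelled as biological replicates of this cell line, so p-values measure the spread between cultures of 1 line. How long glucose was given before RNA was taken from these cells is not stated in the sources used here. The study's insulin secretion assay, with the same fast and glucose levels, used 1 h.

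In a β-cell, glucose metabolism is the sensor for insulin secretion. Glycolysis splits glucose to pyruvate, and the cell passes nearly all of that pyruvate into mitochondria, where pyruvate dehydrogenase makes acetyl-CoA and pyruvate carboxylase makes oxaloacetate. The TCA cycle and the glycerol-phosphate and malate-aspartate shuttles then feed the respiratory chain, and the ATP that results closes the KATP channel. Citrate, malate and isocitrate that leave the mitochondrion pass through malic enzyme and isocitrate dehydrogenase and return as pyruvate or NADPH, a set of loops known as pyruvate cycling. These transcripts were compared between glucose levels and between treatments because the study asks how TMAO alters the response of β-cells to glucose.

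The 12 libraries held between 16793162 and 22340542 counted fragments, with a median of 18874668, and the 56 rows took between 0.896% and 0.927% of them. Within a condition, pairs of libraries differed by 1.83 to 3.90 times the squared difference that counting alone gives, so no pair was a repeat of the same library. The β-cell markers Ins2, Iapp and Pdx1 had means of 25490, 12110 and 187 FPKM (fragments per kilobase of gene, scaled to the library's total). Of the markers of other cells, only Gcg (217 FPKM), Sst (1.39 FPKM), Spp1 (38.6 FPKM) and Cd68 (4.04 FPKM) had a mean above 1 FPKM, and Ptprc, Adgre1, Krt19, Amy2a5, Pnlip and Pdgfrb had no counts. In bulk RNA, fewer cells of a type and less RNA per cell cannot be told apart. The summed level of the 5 markers of other islet cells, nearly all of it Gcg, was 201 to 218 FPKM in the low-glucose libraries and 224 to 230 FPKM in the high-glucose libraries. That of the 3 immune markers, all of it Cd68, was 2.89 to 4.10 FPKM in low and 4.12 to 4.84 FPKM in high glucose. With vehicle alone, the glucose levels also did not overlap in the sum of the 3 duct markers (36.0 to 38.2 FPKM in low and 39.6 to 42.5 FPKM in high glucose) and of the 12 β-cell markers (42280 to 45840 and 46060 to 47660 FPKM), whereas with TMAO both sums overlapped. The immune sum also differed without overlap between treatments, from 2.89 to 3.62 FPKM with vehicle and 3.87 to 4.10 FPKM with TMAO in low glucose, and from 4.33 to 4.84 FPKM and 4.12 to 4.30 FPKM in high glucose. The part of these sums in the results below was not tested.

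Levels were compared between genes as FPKM, which is per length, so the order of genes rests on the gene lengths used for it. Of the 56 rows, 6 had a mean of at least 100 FPKM, 38 lay between 10 and 100, 9 between 1 and 10, and 3 below 1. The highest was Pkm, pyruvate kinase, which makes pyruvate at the last step of glycolysis, at 324 FPKM (309 to 341 over the 12 libraries). Tpi1, triosephosphate isomerase, followed at 176 FPKM (166 to 191). Its lowest library was above the highest of Idh2, the mitochondrial NADP-dependent isocitrate dehydrogenase, at 145 FPKM (139 to 149). Idh2 and Mdh1, cytosolic malate dehydrogenase (135 FPKM, 119 to 142), overlapped. Mdh1 also overlapped Pgk1, phosphoglycerate kinase (125 FPKM, 119 to 133), and Pgk1 overlapped Pgam1, phosphoglycerate mutase (116 FPKM, 107 to 124). The top of the order thus held glycolytic enzymes with a malate and an isocitrate dehydrogenase, and neighbours from Idh2 down to Pgam1 did not separate beyond the spread of the libraries.

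**Figure D1:**
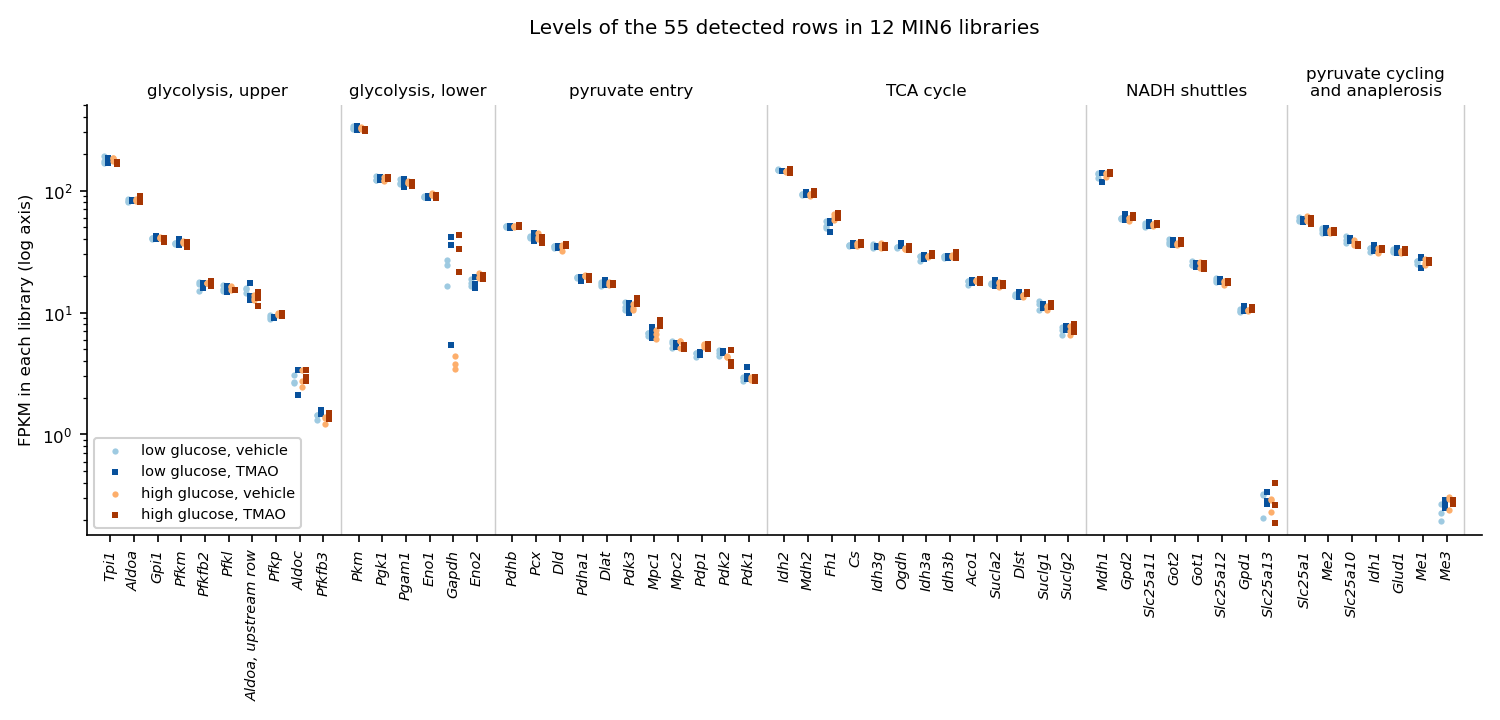
FPKM (log axis) of the 55 detected rows in each of the 12 libraries, grouped by role and ordered by mean, with colour for the condition. Pkm lies at 324 FPKM and Slc25a13 and Me3 below 1 FPKM, the points of most rows lie close together, and the Gapdh row spans 3.47 to 43.2 FPKM; Pdk4, with no counts, is left out.

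The roles differed in level. The 6 rows of lower glycolysis had the highest median, 103 FPKM, with Pkm at the top and Eno2, the enolase also called neuron-specific enolase, at the bottom by mean (18.7 FPKM). The Gapdh row, with a mean of 21.8 FPKM, ran from 3.47 to 43.2 FPKM, on both sides of Eno2 (15.9 to 21.3 FPKM). The 10 rows of upper glycolysis had a median of 16.4 FPKM, from Tpi1 to Pfkfb3 at 1.42 FPKM. The 13 TCA cycle rows had a median of 29.0 FPKM, from Idh2 to Suclg2, a β subunit of GTP-forming succinyl-CoA ligase, at 7.32 FPKM. The 8 rows of the NADH shuttles had a median of 31.0 FPKM and the 7 of pyruvate cycling and anaplerosis 33.0 FPKM. Among the latter the citrate carrier Slc25a1 was highest (57.5 FPKM). The 12 rows of pyruvate entry had the lowest median, 9.24 FPKM, from Pdhb, the E1 β subunit of pyruvate dehydrogenase (50.7 FPKM), to Pdk4, a pyruvate dehydrogenase kinase. Pdk4 had 0 counts in all 12 libraries, which allows up to 3 counts, or 1.79e-05% of the smallest library, counting error only.

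Where several genes encode the same step, 1 usually carried most of the summed FPKM. Of the summed FPKM of the 3 phosphofructokinase subunits, which set the committed step of glycolysis, Pfkm gave 59.6% ± 1.04 (SD, n = 12 libraries), Pfkl 25.2% ± 0.720 and Pfkp 15.2% ± 0.819. In fragments the order differed, with mean counts of 2390 for Pfkp, 2075 for Pfkm and 1980 for Pfkl. The FPKM shares thus rest on gene lengths of 13401, 2957 and 6675 bases for Pfkp, Pfkm and Pfkl. Of the 4 bifunctional enzymes that make and break down fructose 2,6-bisphosphate, the activator of phosphofructokinase, Pfkfb2 gave 80.6% (79.4 to 82.1% over the libraries) and Pfkfb3 6.71%, with the rest from Pfkfb1 (6.74%) and Pfkfb4 (5.96%), which are not on the list. Of the summed FPKM of the aldolases Aldoa and Aldoc, Aldoa gave 96.6% (96.1 to 97.5%) and Aldoc 3.36%, with the small upstream Aldoa row left aside. Enolase was 72.5% Eno1 (71.0 to 74.3%) and 13.6 to 16.3% Eno2 over the libraries, with the rest from Eno1b (7.99%), Eno3 (4.37%) and Eno4 (0.147%), none of them on the list. Eno1b is a retrotransposed copy of Eno1, 99.5% identical over 1736 bases, so the split between these 2 rows is uncertain. The ranges of Pfkfb1, Pfkfb3 and Pfkfb4 overlapped, and those of the other genes within each of these families did not.

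The mitochondrial families were as uneven. Of the summed FPKM of the 4 pyruvate dehydrogenase kinases, which switch the complex off, Pdk3 held 60.5% (56.5 to 66.5%). Pdk2 held 23.8% (18.5 to 27.5%) and Pdk1 15.7% (14.0 to 18.7%). In FPKM, Pdk2 (3.65 to 4.89) lay above Pdk1 (2.72 to 3.58), with no overlap between the libraries. In normalized counts Pdk1 (401 to 526) lay above Pdk2 (219 to 292), also with no overlap. The FPKM order of these 2 genes thus rests on their gene lengths, 3163 bases for Pdk2 and 7779 for Pdk1. Malic enzyme was 64.0% Me2, the mitochondrial NAD-dependent form, 35.7% Me1, the cytosolic NADP-dependent form, and 0.362% Me3. The aspartate-glutamate carrier of the malate-aspartate shuttle was 98.4% Slc25a12, also known as aralar (97.7 to 99.0%), and 1.56% Slc25a13, known as citrin. Succinyl-CoA ligase was 70.2% Sucla2, the ATP-forming β subunit (67.3 to 72.7%), and 29.8% Suclg2. In the glycerol-phosphate shuttle, the mitochondrial enzyme Gpd2 took 84.9% (83.5 to 86.1%) of its sum with the cytosolic Gpd1.

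**Figure D2:**
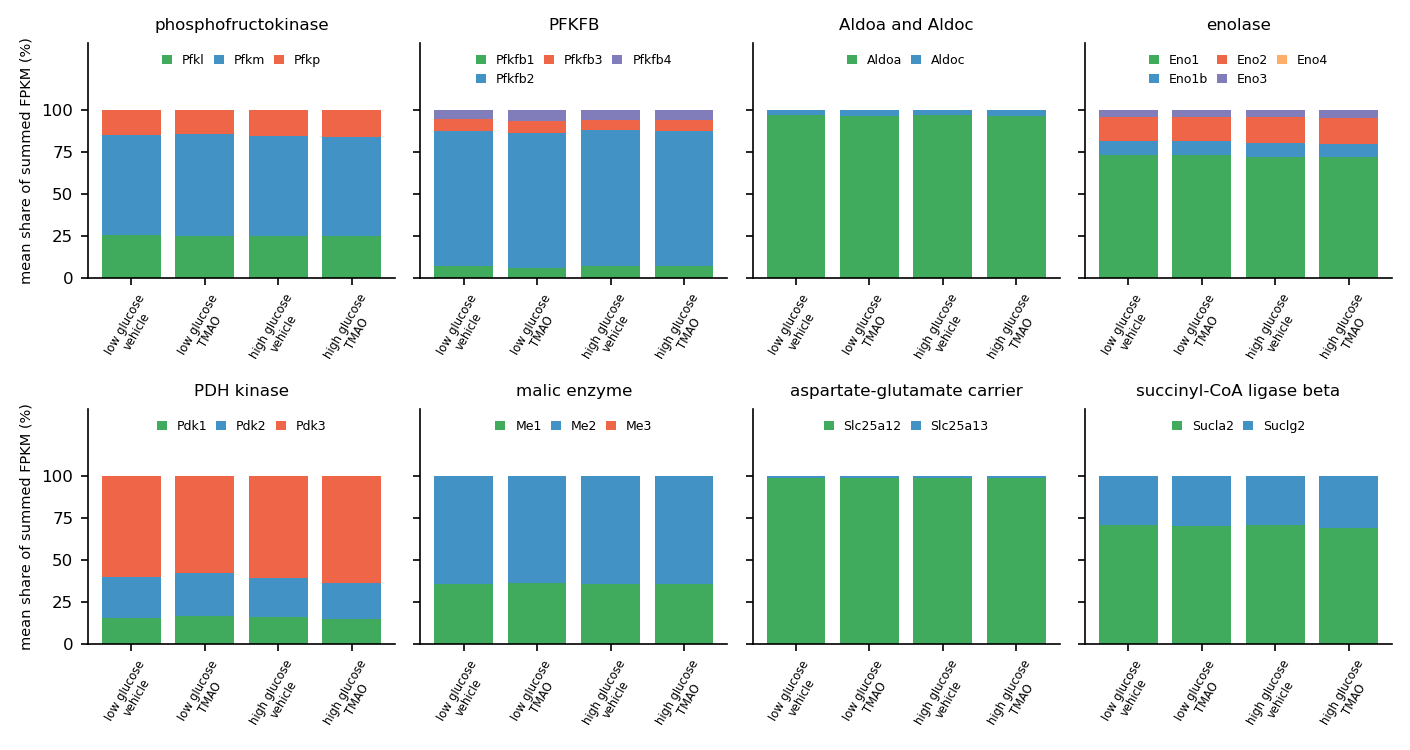
Share of the summed FPKM (%, mean of 3 libraries) taken by each gene of 8 families or pairs in the 4 conditions. The main gene is the same in all 4 conditions in each of them, with Slc25a12 between 98.4% and 98.5% and Pdk3 between 58.0% and 63.5%.

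High glucose changed few of these transcripts, and by little. Averaged over the 2 treatments, 4 of 55 rows (7.27%) passed an adjusted p under 0.05 in edgeR's quasi-likelihood test, against 8.19% of all tested genes. Fh1, Pdp1 and Eno2 were higher in high glucose (background 4.13%) and Slc25a10 was lower (background 4.06%). The share called was thus near that of all genes. At an unadjusted p under 0.05 stood 8 rows (14.5%, background 20.1%), 4 higher and 4 lower. The median log2 fold change of the rows was -0.01, beside 0.00 for all tested genes, and 25 rows were higher and 30 lower. In 2 rows, Fh1 and Pdp1, no high-glucose library overlapped a low-glucose library (3.64% of rows, background 4.94%).

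Fh1, fumarate hydratase of the TCA cycle (chromosome 1, 175600374 to 175625635, minus strand), had 3604, 3272 and 3193 normalized counts in low glucose with vehicle and 3584, 3500 and 2956 in low glucose with TMAO. In high glucose it had 3657, 3907 and 4149 with vehicle and 4242, 3823 and 4074 with TMAO. All 6 high-glucose libraries were above all 6 low-glucose libraries, with the closest pair at 3604 and 3657. The log2 fold change was 0.25 (SE 0.05, 95% interval 0.14 to 0.35), or 1.19-fold, with an edgeR adjusted p of 0.00297. The gene overlaps Kmo on the other strand, which had 10.3 counts on average beside 3655 for Fh1.

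Pdp1 (chromosome 4, 11958184 to 11966452, minus strand) encodes the catalytic subunit of pyruvate dehydrogenase phosphatase, which switches the complex on. Its normalized counts were 369, 393 and 396 in low glucose with vehicle and 401, 402 and 381 in low glucose with TMAO. They were 467, 463 and 449 in high glucose with vehicle and 427, 468 and 454 in high glucose with TMAO. The 6 high-glucose libraries again lay above the 6 low-glucose ones. The log2 fold change was 0.22 (SE 0.05, 95% interval 0.12 to 0.32), or 1.17-fold, with an edgeR adjusted p of 0.00389.

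Eno2 (chromosome 6, 124760053 to 124769673, minus strand) had 1472, 1551 and 1677 normalized counts in low glucose with vehicle and 1412, 1514 and 1733 with TMAO. In high glucose it had 1896, 1721 and 1733 with vehicle and 1782, 1809 and 1676 with TMAO. The third low-glucose replicate of each treatment reached the range of the high-glucose libraries, so the groups overlapped. The log2 fold change was 0.18 (SE 0.05, 95% interval 0.09 to 0.28), or 1.14-fold, with an edgeR adjusted p of 0.00996, and limma on log2(FPKM + 1) did not call it (adjusted p = 0.0601). Eno1, which carries most of the enolase transcript, had a log2 fold change of 0.04 and did not pass. The mean Eno2 share of the 5 enolase genes' FPKM was 14.4% in both low-glucose conditions, 15.5% in high glucose with vehicle and 15.8% in high glucose with TMAO.

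Slc25a10, the mitochondrial dicarboxylate carrier that exchanges malate or succinate for phosphate (chromosome 11, 120491840 to 120499187, plus strand), had 2773, 2569 and 2442 normalized counts in low glucose with vehicle and 2649, 2495 and 2661 with TMAO. In high glucose it had 2560, 2337 and 2451 with vehicle and 2377, 2385 and 2311 with TMAO. The vehicle libraries of the 2 glucose levels overlapped, and the TMAO libraries did not. The log2 fold change was -0.11 (SE 0.04, 95% interval -0.19 to -0.04), with an edgeR adjusted p of 0.0465. This call was lost without low glucose, vehicle replicate 1 or 2, low glucose, TMAO replicate 1 or 3, high glucose, vehicle replicate 2 or 3, or any high glucose, TMAO replicate (9 of the 12 libraries), with adjusted p up to 0.183. It was also lost in 4 of the 8 other settings run: DESeq2 (0.0519), at least 10 counts in every library (0.0509) and limma on log2 FPKM with a pseudocount of 1 (0.0837) or 0.1 (0.0834).

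**Figure D3:**
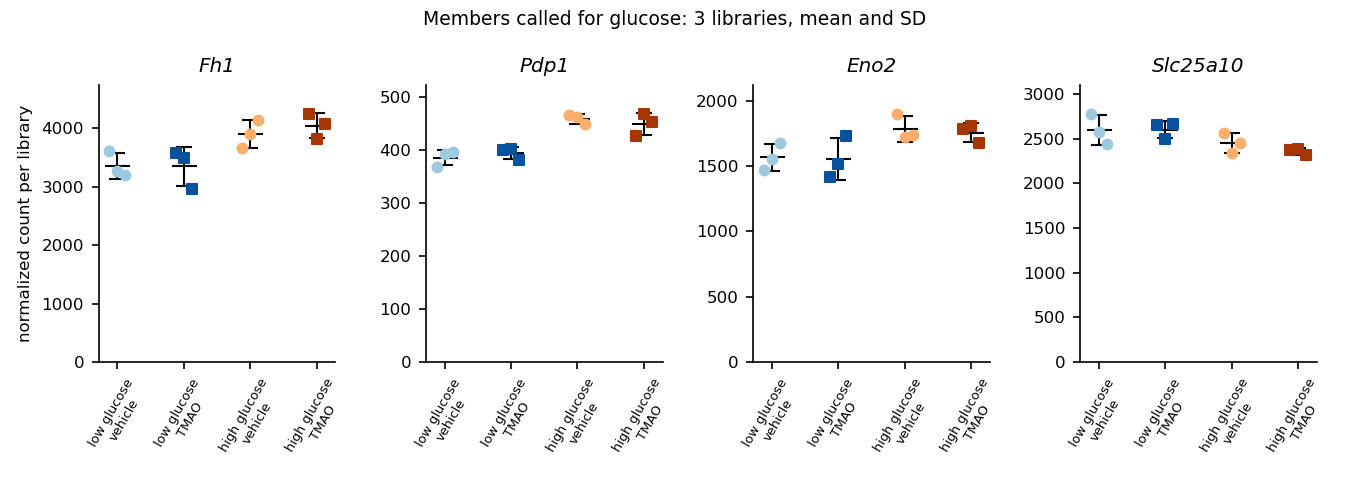
Normalized counts of the 4 rows called for glucose in each library, with the mean and SD of the 3 libraries of each condition; the axes start at 0. Fh1, Pdp1 and Eno2 sit higher and Slc25a10 lower in both high-glucose conditions, by steps that are small beside the level of each gene.

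Within each treatment, fewer rows passed. With vehicle, Pdp1 alone was called (log2 fold change 0.25, SE 0.07, edgeR adjusted p = 0.0445), which is 1.82% of rows against 3.30% of all tested genes, and 4 rows had an unadjusted p under 0.05 (background 13.0%). The Pdp1 call was lost when any vehicle library, or high glucose, TMAO replicate 2 or 3, was left out (8 of 12 libraries, adjusted p up to 0.211). It was also lost in 5 of the 9 other settings run: DESeq2 (0.0955), no filter on low counts (0.101), only the 6 vehicle libraries (0.0503) and limma with a pseudocount of 1 (0.0536) or 0.1 (0.0537). With TMAO, Fh1 alone was called (0.27, SE 0.07, edgeR adjusted p = 0.0328), again 1.82% of rows against 3.64% of all tested genes, and 6 rows had an unadjusted p under 0.05 (background 14.7%). The Fh1 call was lost without low glucose, TMAO replicate 3, high glucose, vehicle replicate 2, or high glucose, TMAO replicate 1 or 3, with adjusted p up to 0.148. It was also lost in 3 of the 9 other settings run: limma at a pseudocount of 1 (0.0999) or 0.1 (0.0998), and the replicate block described at the end. The values with vehicle for Fh1 (0.22) and with TMAO for Pdp1 (0.19) had the same direction. The test of the difference between treatments gave log2 0.06 (SE 0.10) for Fh1 and -0.06 (SE 0.10) for Pdp1, with unadjusted p of 0.578 and 0.539 in edgeR.

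The promoter sequences of the called genes are given so that the regions in front of these starts can be read beside their values. They are the 250 bases before the RefSeq start (GRCm38.p6), 5′ to 3′ on the gene's strand: Fh1 at chr1:175625636-175625885 (minus), Eno2 at chr6:124769674-124769923 (minus) and Slc25a10 at chr11:120491587-120491836 (plus). Capitals mark matches to 5 motifs searched on both strands: TGACG (the core of a cyclic AMP response element), CACGTG (E-box), CCAAT (bound by NF-Y), the letters GGGCGG (GC box) and GCGNGGGCG (EGR).
Fh1: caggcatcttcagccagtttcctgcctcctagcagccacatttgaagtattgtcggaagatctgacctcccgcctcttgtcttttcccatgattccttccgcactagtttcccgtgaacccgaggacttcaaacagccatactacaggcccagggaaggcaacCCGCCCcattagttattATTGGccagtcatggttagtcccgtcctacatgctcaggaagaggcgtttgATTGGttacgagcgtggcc
Eno2: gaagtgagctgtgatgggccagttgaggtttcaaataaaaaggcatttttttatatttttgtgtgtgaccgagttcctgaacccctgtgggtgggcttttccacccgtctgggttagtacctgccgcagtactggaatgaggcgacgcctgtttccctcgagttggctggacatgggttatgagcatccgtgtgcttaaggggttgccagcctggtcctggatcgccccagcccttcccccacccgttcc
Slc25a10: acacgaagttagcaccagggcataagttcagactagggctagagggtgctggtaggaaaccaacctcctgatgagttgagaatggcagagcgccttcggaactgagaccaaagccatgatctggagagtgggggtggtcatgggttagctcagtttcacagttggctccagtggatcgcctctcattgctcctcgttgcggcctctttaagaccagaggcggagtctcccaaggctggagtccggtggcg

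The Fh1 window held 2 matches to CCAAT, read as ATTGG on this strand from 70 to 66 and from 19 to 15 bases before the start, and 1 match to GGGCGG, read as CCGCCC from 87 to 82 bases before it. The Eno2 and Slc25a10 windows held none of the 5 motifs, which says only that these letters are not in these windows. Their GC contents were 52.8% for Fh1, 54.4% for Eno2 and 56.0% for Slc25a10. The promoter table held 75 windows for 51 of the 55 genes, and Gpd1, Idh3a, Me2 and Pdp1 were not among them. Of these windows 42.7% held CCAAT, against 33.8% of all 32851 promoter windows of the same length, and 52.0% held GGGCGG, against 32.7%. The values were 20.0% and 17.8% for TGACG, 13.3% and 6.02% for CACGTG, and 9.33% and 4.70% for GCGNGGGCG. Matches to GCGNGGGCG can overlap matches to GGGCGG. These shares are descriptions, and windows of the same gene can overlap.

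The other rows moved little with glucose. The 95% interval of the log2 fold change lay within 1.25-fold in either direction for 49 of 55 rows (89.1%), against 63.5% of all tested genes. The member rows also had more counts, with a median of 2121 per library against 399.5 over all tested genes, which narrows an interval. The 6 exceptions were Fh1, Pdp1, the upstream Aldoa row, Gapdh, Me3 and Slc25a13, and the last 2 were the least expressed rows detected (73.1 and 20.2 counts). The median log2 fold change was -0.02 for upper glycolysis, -0.01 for lower glycolysis, 0.01 for pyruvate entry, 0.02 for the TCA cycle, 0.00 for the NADH shuttles and -0.02 for pyruvate cycling. No row of upper glycolysis or of the NADH shuttles was called by edgeR, and outside Fh1 the TCA cycle rows lay between -0.05 for Ogdh and 0.04 for Idh3a.

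Among the rows nearest the threshold, Pfkp, the platelet-type phosphofructokinase, had 2307, 2435 and 2250 normalized counts in low glucose with vehicle, 2309, 2340 and 2318 with TMAO, and in high glucose 2506, 2434 and 2452 with vehicle and 2409, 2398 and 2533 with TMAO. The difference was 0.08 on the log2 scale (SE 0.03, edgeR adjusted p = 0.158), and the libraries of the 2 levels overlapped. Pdk2 had 263, 292 and 281 in low glucose with vehicle, 279, 281 and 291 with TMAO, 258, 257 and 262 in high glucose with vehicle and 219, 235 and 292 with TMAO. Its difference was -0.15 (SE 0.07, edgeR adjusted p = 0.205), with 1 high-glucose library among the highest of all. Ogdh, the E1 subunit of oxoglutarate dehydrogenase, had 3561, 3586 and 3491 in low glucose with vehicle, 3827, 3655 and 3604 with TMAO, 3443, 3485 and 3454 in high glucose with vehicle and 3605, 3584 and 3338 with TMAO. Its difference was -0.05 (SE 0.03, edgeR adjusted p = 0.344).

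The second Aldoa row (chromosome 7, 126800790 to 126809108, minus strand), which adjoins the main one upstream, had 218, 234 and 240 normalized counts in low glucose with vehicle, 209, 192 and 263 with TMAO, 210, 191 and 198 in high glucose with vehicle and 198, 224 and 172 with TMAO. Its difference was -0.18 (SE 0.08, edgeR adjusted p = 0.207). The main Aldoa row, with 4605 counts on average, had a difference of 0.01. The upstream row lies wholly within Fam57b on the other strand, and whether counting used strand is not given in the sources used here.

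TMAO changed none of these rows by edgeR at an adjusted p under 0.05. In low glucose 0 of 55 rows were called, against 0.00616% of all tested genes, and 0 had an unadjusted p under 0.05 (background 2.20%), with 0 called by DESeq2 and by limma. In high glucose 0 were called by edgeR (background 0%) and by limma, DESeq2 called Gapdh (1.82% of rows, beside 0.0185% of all genes it tested, 3 genes), and 3 rows had an unadjusted p under 0.05 (5.45%, background 5.35%). Averaged over the 2 glucose levels 0 were called by edgeR (background 0%), DESeq2 or limma, and 2 rows had an unadjusted p under 0.05 (3.64%, background 3.62%). For the interaction 0 were called by all 3 tools (edgeR background 0%), and 1 row had an unadjusted p under 0.05 (1.82%, background 3.36%). The edgeR shares were close to, or below, those of all genes.

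The size of any TMAO difference was bounded for most rows. Averaged over glucose levels, 52 of 55 rows (94.5%) had a 95% interval within 1.25-fold in either direction, against 68.9% of all tested genes, and the exceptions were Gapdh, Me3 and Slc25a13. In high glucose alone 49 rows (89.1%) did so, against 58.6%. All 13 TCA cycle rows were inside this limit in both comparisons, with log2 fold changes in high glucose between -0.03 and 0.09. In no row did all 6 TMAO libraries lie apart from all 6 vehicle libraries (0 of 55, background 0.142%). The median log2 fold change of the rows was 0.01, beside 0.00 for all tested genes, with 31 rows higher and 24 lower. At high glucose alone, the 3 TMAO libraries lay apart from the 3 vehicle libraries in 6 of 55 rows (10.9%), 3 higher and 3 lower. The share of all tested genes that did so was not counted, so such a gap in a row below is a description only.

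**Figure D4:**
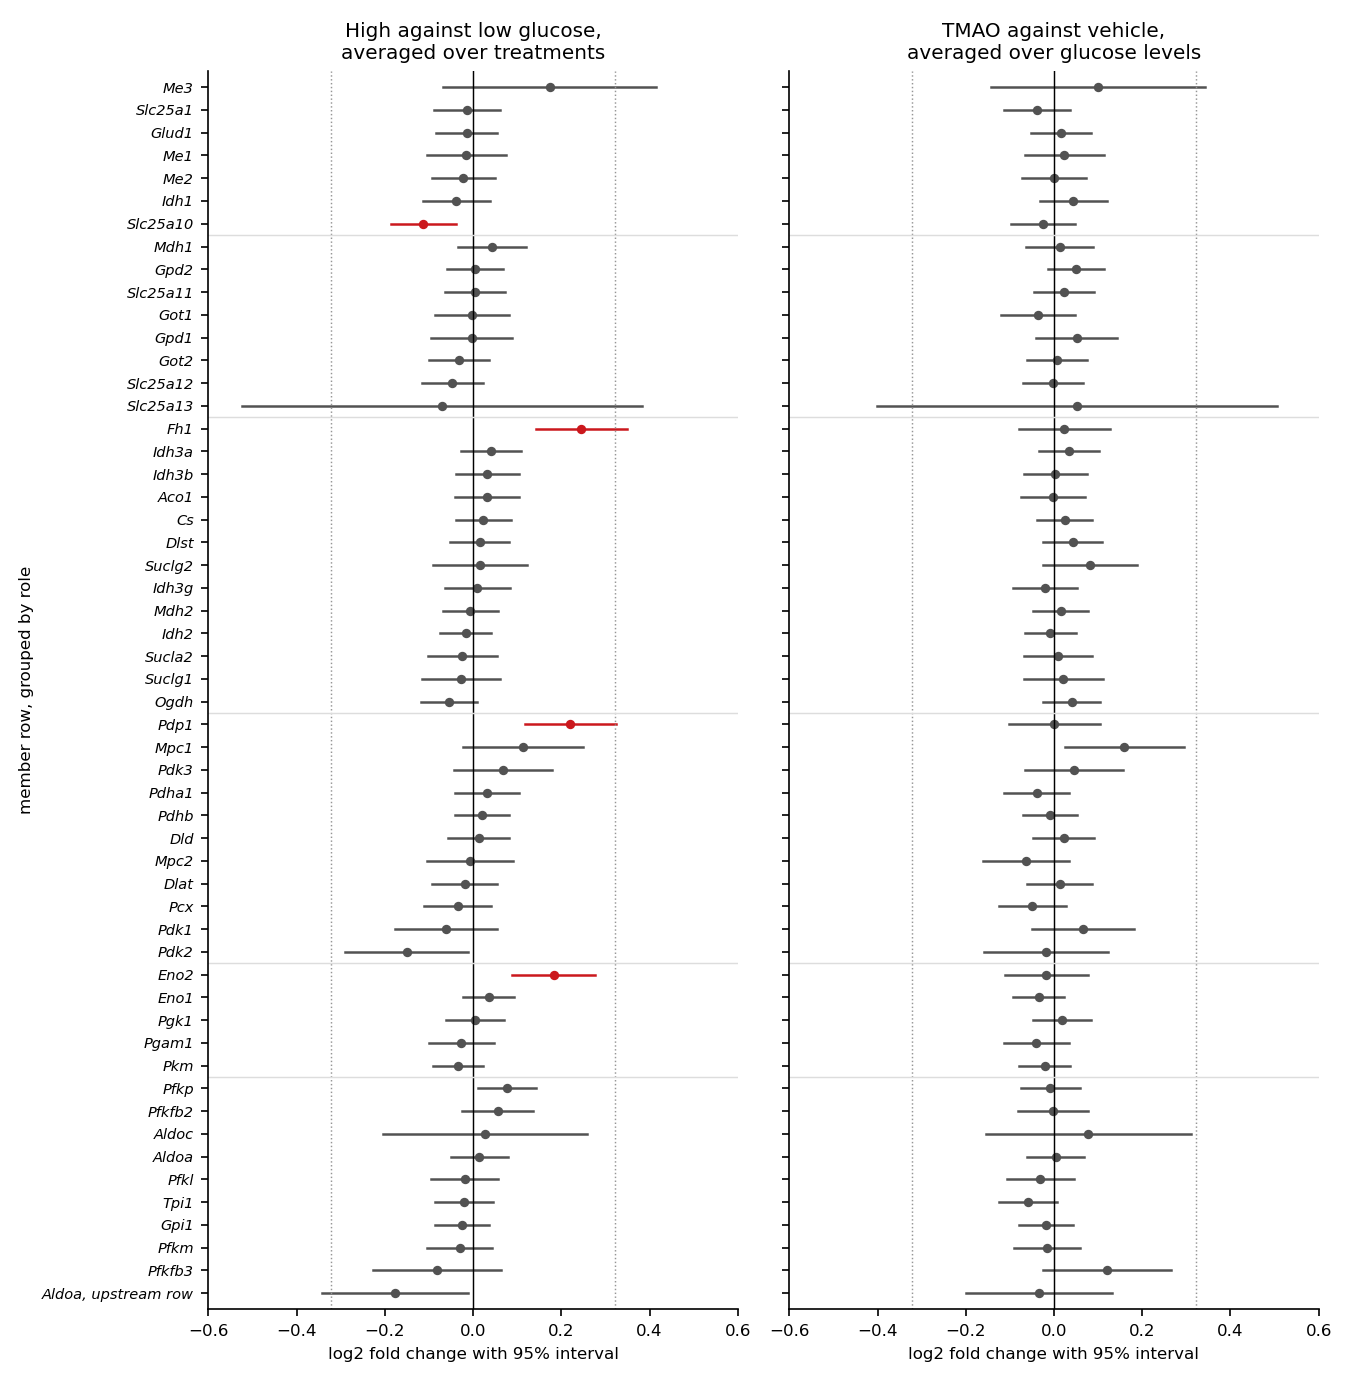
Log2 fold change with its 95% interval for 54 rows, high against low glucose on the left and TMAO against vehicle on the right, grouped by role; red marks an adjusted p under 0.05 and dotted lines mark 1.25-fold. Fh1, Pdp1, Eno2 and Slc25a10 are red on the left and no row is red on the right; Gapdh (-1.15 and 1.68) is off the scale and left out.

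Mpc1, a subunit of the mitochondrial pyruvate carrier (chromosome 17, 8282904 to 8297661, plus strand), had 263, 241 and 285 normalized counts in high glucose with vehicle and 340, 308 and 309 with TMAO. In low glucose it had 254, 268 and 269 with vehicle and 267, 302 and 244 with TMAO. The 3 TMAO libraries at high glucose were above the 3 vehicle libraries, while those at low glucose overlapped. The log2 fold change was 0.28 at high glucose (SE 0.09, edgeR adjusted p = 0.910), 0.16 averaged over glucose levels (adjusted p = 1.00) and 0.24 for the interaction (SE 0.13, adjusted p = 1.00). The pseudogene Mpc1-ps is 99.7% identical over 330 bases and took 728 counts on average, more than the 278 of Mpc1. With the pseudogene counts added, an alternative chosen after seeing the data, the difference at high glucose was 0.10. Over the other settings run, the value averaged over glucose levels went down to 0.04. Mpc2, the partner subunit, went the other way at -0.06 averaged over glucose levels, also without passing.

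Tpi1 had 9634, 9050 and 9582 normalized counts in high glucose with vehicle and 8990, 8680 and 8689 with TMAO, and the 2 sets did not overlap. In low glucose it had 9907, 9099 and 8837 with vehicle and 9644, 8813 and 9053 with TMAO, which did. The log2 fold change was -0.10 at high glucose (SE 0.05, edgeR adjusted p = 0.910) and -0.06 averaged over glucose levels (adjusted p = 1.00). Pfkm, the muscle-type phosphofructokinase, had 2059, 2040 and 2076 normalized counts in low glucose with vehicle, 2169, 1984 and 2259 with TMAO, 2153, 2121 and 2074 in high glucose with vehicle and 2116, 1950 and 1915 with TMAO. Its interaction was -0.14 on the log2 scale (SE 0.07, edgeR adjusted p = 1.00), and its libraries overlapped between treatments at both glucose levels.

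The Gapdh row (chromosome 6, 125161715 to 125166467, minus strand), for the dehydrogenase that makes the NADH of glycolysis and a gene often used as a reference in PCR, was the least steady of the set. Its normalized counts were 1924, 2118 and 1292 in low glucose with vehicle and 2793, 3274 and 425 in low glucose with TMAO. They were 347, 295 and 271 in high glucose with vehicle and 1688, 3381 and 2614 in high glucose with TMAO. The 3 vehicle libraries at high glucose and the third TMAO library at low glucose stood far below the other 8. The within-condition SD of log2 counts was 0.88, the second highest of the 7363 genes with a mean of at least 500 normalized counts, whose median was 0.07, and no other member row among them exceeded 0.11.

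For this row the edgeR test gave a log2 fold change for TMAO of 3.08 at high glucose (SE 0.71, unadjusted p = 0.00238, adjusted p = 0.910), 0.29 at low glucose and 1.68 averaged (SE 0.47, adjusted p = 1.00). DESeq2 called the difference at high glucose (adjusted p = 0.00971), and also the one between glucose levels with vehicle, where it called 3.25% of all genes it tested. For high against low glucose it was -2.54 with vehicle (SE 0.72, edgeR adjusted p = 0.137) and 0.25 with TMAO, and the interaction was 2.79 (SE 0.93, unadjusted p = 0.0167, edgeR adjusted p = 1.00). Sequence near-identical to Gapdh, at least 95% over 200 bases, lies in 122 annotated pseudogenes. Of these copies, Gm7336 had the most counts, with 99.8% identity over 1232 bases. The summed normalized count of the 122 copies was 1513 to 1827 per library, a 1.21-fold range, while the Gapdh row spanned 12.5-fold. With the copies added to the row the TMAO difference at high glucose was 1.14 (edgeR adjusted p = 0.907). Over the other settings run, the TMAO difference averaged over glucose levels went down to 0.67. How fragments that match several places were assigned is not given in the sources used here, so the values of the Gapdh row are uncertain, and the part of the copies in its spread was not tested.

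**Figure D5:**
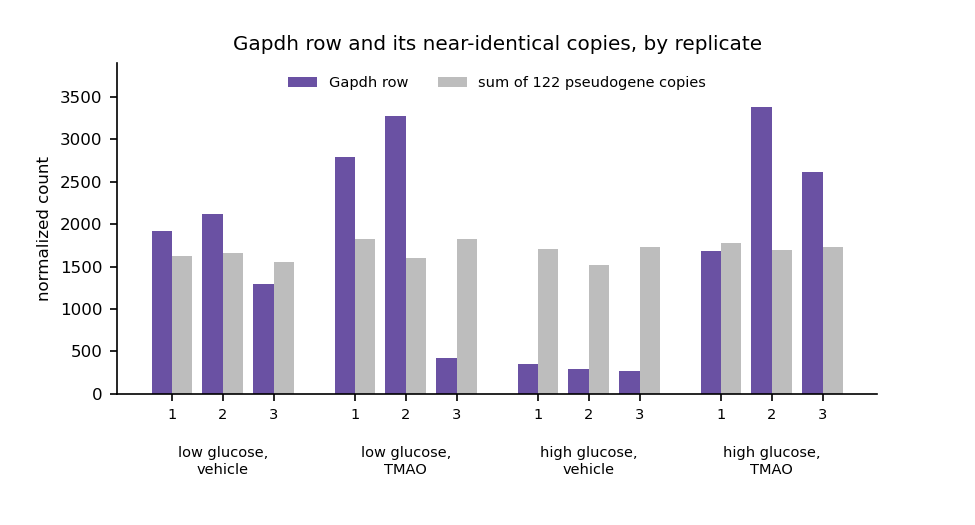
Normalized counts of the Gapdh row (purple) and the sum of its 122 near-identical pseudogenes (grey) in each library, grouped by condition and replicate. The copies stay between 1513 and 1827 while the row runs from 271 to 3381.

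Of 59 further genes of the same pathways, 51 were tested. In the comparison of glucose levels averaged over treatments 4 were called (7.84%, near the 8.19% of all tested genes), all of them higher (background 4.13%). Gpt2, the mitochondrial alanine transaminase that interconverts pyruvate and glutamate with alanine and oxoglutarate, had 10.02 ± 0.470 and 9.42 ± 0.523 FPKM (SD, n = 3) in low glucose with vehicle and TMAO. In high glucose it had 12.4 ± 0.979 and 11.4 ± 1.02 FPKM, a log2 fold change of 0.29 (SE 0.05, edgeR adjusted p = 4.94e-05). Gls2, a glutaminase, rose from 7.40 ± 0.592 and 7.49 ± 0.00717 FPKM to 8.61 ± 0.0998 and 9.35 ± 0.181 FPKM (0.27, SE 0.05, edgeR adjusted p = 0.000187). Slc25a22, a mitochondrial glutamate carrier, changed by 0.17 (edgeR adjusted p = 0.0111) and Slc2a2, the GLUT2 glucose transporter, by 0.09 (edgeR adjusted p = 0.0478). With vehicle alone Gpt2 was called (1.96%, background 3.30%), and with TMAO alone Gpt2 and Gls2 (3.92%, background 3.64%). Of these genes 0 were called for TMAO at either glucose level, averaged or in the interaction by edgeR. The median of the 51 was 0.02 for glucose and 0.00 for TMAO averaged over glucose levels.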

How the data were processed

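RNA from 12 MIN6 cultures, 3 per condition, was sequenced as paired-end poly-A libraries. The authors deposited a table of fragment counts per gene, not normalized, and a table of FPKM values for the same genes. The submitters' processing notes name HISAT2 2.0.5, featureCounts 1.5.0-p3, DESeq2 1.16.1 and mm10. Of the 56 member rows, 52 had the coordinates of GENCODE M21 (GRCm38). Groups came from the labels, and 0 per-library columns were left unused.

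Counts were tested in R 4.3.3 with edgeR 4.0.16 (filterByExpr, TMM, robust quasi-likelihood F test, all 12 libraries, 4 condition means, 7 contrasts), with Benjamini-Hochberg adjustment over 16222 genes and calls at an adjusted p under 0.05. Normalized counts are counts scaled by TMM library sizes. SE is the log2 fold change over the square root of F. Copies were found with blastn 2.17.0. The fit was tested on simulated data. Alternatives used DESeq2 1.42.0, limma 3.58.1 on log2 FPKM with a pseudocount of 1 or 0.1, which understates low genes, other filters, a replicate block and libraries left out. Figures used matplotlib 3.10.9.

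The members, gene lists and tests were chosen with earlier results of these data known. Library values are given for called members, filled to 10 by the lowest p for glucose, and for the 3 lowest p for TMAO and for the interaction. Depth allows 1.79e-05% of the smallest library as the limit of a count of 0.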

Additional observations from a re-analysis of the deposited data

How the results depend on the processing

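Fh1 and Pdp1 kept their calls for glucose averaged over treatments under all 20 alternatives each, Eno2 under 18 (lost with both limma settings) and Slc25a10 under 7 (3 of 12 with a library left out, 4 of 8 others). Members called there were 4, but 3 with DESeq2 (5.45%, beside 7.26% of all genes), 3 with at least 10 counts in every library (8.85% of all genes), 2 with either limma setting (3.64%, beside 6.44% and 6.51% of all genes for a pseudocount of 1 and 0.1), and 3 to 4 with a library left out. With vehicle, 1 member was called, but 2 with DESeq2 (Fh1 and Gapdh, 3.64%, beside 3.25% of all genes), 0 with limma on log2(FPKM + 1) (2.55% of all genes), 3 with only the 6 libraries of that comparison (Fh1, Eno2 and Gapdh, 5.45%, beside 3.82%) and 0 to 4 with a library left out. With no filter on low counts (2.12% of all genes) and with limma on log2(FPKM + 0.1) (2.48%), the 1 member called was not Pdp1. With TMAO, 1 was called, but 0 with the replicate block (4.83% of all genes), 0 with either limma setting (2.16% and 2.06%) and 0 to 1 with a library left out. For TMAO at high glucose, DESeq2 called 1 member (Gapdh; 1.82%, beside 0.0185% of all genes) in place of 0.

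Over all genes, 536 were called for glucose with vehicle and 591 with TMAO. These became 328 to 625 and 344 to 657 with a library left out (lowest without high glucose, vehicle replicate 3 and without high glucose, TMAO replicate 3; 341 without low glucose, vehicle replicate 2 and 365 without low glucose, TMAO replicate 1), and limma called 351 with log2(FPKM + 1) and 334 with log2(FPKM + 0.1) for the latter. For TMAO at low glucose 1 gene was called, but 7 with no filter on low counts, 0 with either limma setting, 3 with only the 6 libraries and 0 to 1 with a library left out. At high glucose the 0 became 3 with DESeq2, 13 with no filter, 3 with only the 6 libraries and 0 to 1 with a library left out. Averaged, the 0 became 2 with DESeq2, 9 with no filter and 0 to 2 with a library left out. For the interaction it became 1, 6 and 0 to 2. The cause of these shifts was not tested. The fold changes of the called members in the comparisons that called them, and of Gapdh and Mpc1 for TMAO at high glucose and averaged, kept their direction under these alternatives.

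Same-numbered libraries did not deviate together in every pair (correlation -0.04 to 0.21), and not every library correlated best with its own number, so the numbers were not taken to pair the samples. In low glucose, vehicle and TMAO libraries of the same number correlated at 0.21, 0.03 and 0.15, and those of different numbers at -0.19 to 0.05. The replicate block moved the genes called for glucose from 536 to 717 with vehicle, from 591 to 783 with TMAO and from 1328 to 1678 averaged over treatments. It took the members called for glucose with TMAO from 1 (Fh1, adjusted p = 0.0854) to 0, and left 4 called for glucose averaged over treatments. With 3 libraries per condition the median SE of a member's log2 fold change was 0.05, and 0.04 for the averaged comparisons; the smallest detectable shift was not estimated.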

Other observations

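Of the 55 genes, 17 share at least 95% identity over 200 bases with another annotated gene, so counts could be split between them. The copies took few counts beside the member in most of them: 29.0 for Got2-ps1 against 3415 for Got2, 125 for the copies of Pgam1 against 4000, and 72.6 for the copies of Pgk1 against 5308. They took more than the member for Mpc1, and for Me3, where the coding gene Rsph3b shares a stretch of 400 bases and had 403 counts against 73.1. An unclassified transcript inside Pkm, AC160637.1, had 1082 counts beside 30696 for Pkm. In 20 rows another gene with at least 5 counts overlapped the member, and in 17 of them it lay only on the other strand. Among these, Pcx, pyruvate carboxylase (3612 counts), shares 3883 bases with Lrfn4 (4474 counts), and Pdha1, the E1 α subunit of pyruvate dehydrogenase (1377 counts), shares 1143 bases with Map3k15 (1690 counts).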
